A study of Homo sapiens with 12 samples.

Results

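The 8 genes described here encode the human topoisomerases TOP1, TOP1MT, TOP2A, TOP2B, TOP3A and TOP3B and the tyrosyl-DNA phosphodiesterases TDP1 and TDP2. They were chosen by name, with earlier results of these data known. They were matched to 8 of the 62754 Ensembl gene rows of a deposited RNA sequencing table. All 8 were among the 17115 genes that passed the filter on low counts and were tested. The table held 12 libraries of polyadenylated RNA from PC9, an established line from a human lung adenocarcinoma with mutant EGFR, in 4 groups of 3. A first group had intact TDP1 and no drug (untreated WT). With intact TDP1, drug-tolerant cells (DTC) spent 7 days and drug-tolerant expanded cells (DTEC) 28 days in 1 µM erlotinib, an EGFR inhibitor. KO2 cultures came from a TDP1 knockout line and had no drug. Per the labels, every culture descended from a PC9 subclone, and the 3 cultures of a condition were split from a shared flask and then grown apart. The replicate spread is thus that of parallel cultures of 1 line. The labels do not say whether KO2 is a single clone or which part of TDP1 was altered.

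Topoisomerases cut DNA, let it turn or pass through the gap, and rejoin it, and during the cut a tyrosine of the enzyme is bound to the DNA end. TOP1 and TOP1MT cut a single strand and stay bound to the 3′ end, TOP2A and TOP2B cut both strands and stay bound to the 5′ ends, and TOP3A and TOP3B cut a single strand to pass another through it. When rejoining fails, the trapped enzyme is a cleavage complex. TDP1 cuts the bond between TOP1 and the 3′ end, and TDP2 cuts the bond between TOP2 and the 5′ end. In cancer cells the nuclear enzymes are the targets of drugs such as camptothecins (TOP1) and etoposide (TOP2).

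Libraries held 25572691 to 38373679 estimated read counts, and levels are CPM, read counts scaled to library size with TMM factors, which assume that most genes did not change. All libraries carried epithelial RNA. The summed level of EPCAM, CDH1, KRT7, KRT8, KRT18 and KRT19 was 10794 to 11395 CPM in untreated WT and 11479 to 12314 CPM in KO2, against 6293 to 7277 CPM at day 7 and 9276 to 12151 CPM at day 28. Blood markers summed to at most 1.11 CPM. The lung adenocarcinoma markers NKX2-1, NAPSA, SFTPB and EGFR summed to 1417 to 1546 CPM in untreated WT and 1127 to 1210 CPM in KO2, against 459 to 871 CPM at day 7 and 877 to 1130 CPM at day 28, most of it EGFR, while the lineage factor NKX2-1 was at most 0.442 CPM. Fibroblast markers summed to 54.9 to 57.6 CPM in DTC, nearly all of it COL1A1, against 7.99 to 15.1 CPM elsewhere, with COL1A2, DCN and LUM at most 0.557 CPM. Endothelial markers summed to 58.5 to 61.4 CPM in untreated WT and 75.8 to 77.2 CPM in KO2, against 42.1 to 50.1 CPM at day 7 and 122 to 142 CPM at day 28, nearly all from PECAM1 and CDH5, with VWF and KDR at most 1.85 CPM. The part of these marker lists in the results was not tested. DTC replicate 1 stood apart from DTC replicates 2 and 3 in several of the genes below, and the DTC results of TOP1, TOP2A, TOP2B, TOP3A and TDP2 are given without it as well. Without it the rises from DTC to DTEC were 1.79 for TOP1, 1.84 for TOP2A, 1.10 for TOP2B and 0.45 for TOP3A on the log2 scale.

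After 7 days of erlotinib 7 of the 8 genes fell and 1, TDP2, rose (adjusted p under 0.05, edgeR quasi-likelihood F test over 17115 genes). Across all tested genes 67.3% were called in this comparison, 33.3% as lower and 34% as higher. The 3 DTC and 3 untreated WT libraries did not overlap for any of the 8 genes, nor for 68.9% of all genes, so separation was common. The median log2 fold change of the 8 genes was -0.83, beside 0.06 over all genes tested. With total counts alone or upper-quartile scaling 6 of the 8 were called, 5 lower and 1 higher. The omission of 1 library left 6 to 8 called. TMM factors assume that most genes did not change, whereas most were called here. After 28 days 4 of the 8 were still lower than in untreated WT (TOP1, TOP2A, TOP3A and TOP3B) and none was called higher, where 52.3% of all genes were called, 26.3% as lower and 26% as higher. The groups did not overlap for the same 4 genes, nor for 62.4% of all genes. From day 7 to day 28, 6 rose again and 2 (TOP3B and TDP2) were not called, where 55.4% of all genes were called, 28.8% as higher and 26.6% as lower, and 56.7% did not overlap. In untreated KO2, TDP1 was lower and the other 7 genes were not called, where 4.31% of all genes were called, 1.55% as lower and 2.76% as higher. The groups did not overlap for TOP1, TOP1MT, TOP3A and TDP1, nor for 35.7% of all genes. The DTC and DTEC comparisons share the untreated WT libraries, as does KO2.

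**Figure D1:**
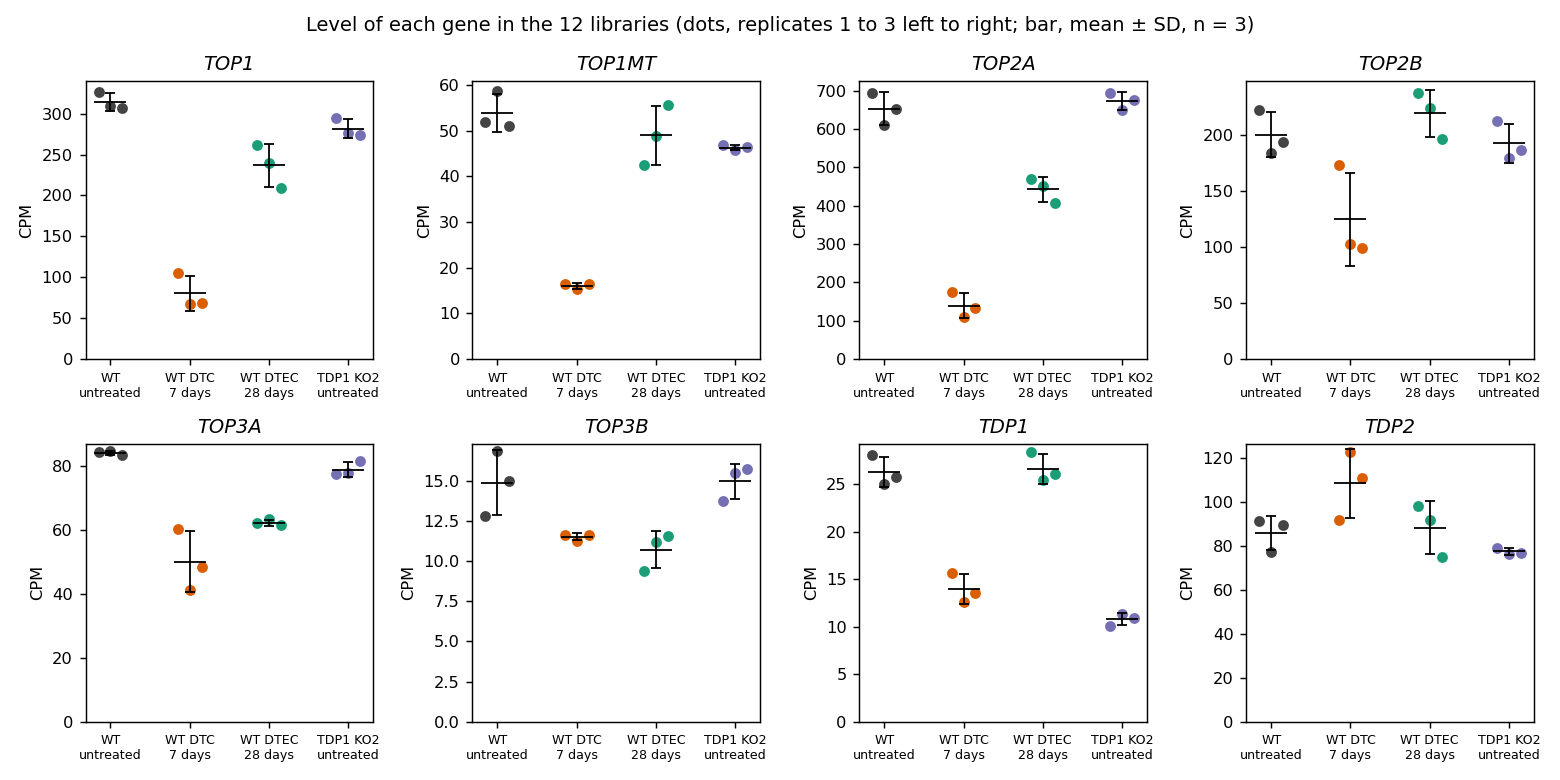
Level of each of the 8 genes in CPM (y axis, from 0) in every library, by group (x axis). Dots are libraries, with replicates 1 to 3 from left to right, and bars are the mean ± SD of 3 libraries. TOP1, TOP1MT and TOP2A drop to between 21.3% and 29.8% of untreated WT in DTC, while TDP2 is the gene with its highest mean there.

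TOP1 relaxes the supercoils that RNA and DNA polymerases leave ahead of and behind them, and its trapped form is the substrate of TDP1. The gene lies on the plus strand of chromosome 20 from 41028818 to 41124487 (GRCh38, GENCODE 29). Untreated WT libraries held 326, 309 and 306 CPM of TOP1, and DTC libraries held 105, 67.1 and 68.3 CPM. Every DTC library was below every untreated WT library, and DTC replicate 1 was the highest of its group. The fall to 25.5% of the untreated WT mean was 3.92-fold (log2 fold change -1.97, SE 0.15, adjusted p 5.33e-08). It was -2.18 without DTC replicate 1 and -1.62 when scaled to total counts alone. Only 2.44% of all tested genes had a log2 fold change as low or lower.

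At 28 days TOP1 stood at 261, 240 and 209 CPM, 75.4% of the untreated WT mean. All 3 libraries were above those of DTC (log2 fold change 1.56, SE 0.15, adjusted p 1.17e-06) and below those of untreated WT (-0.41, SE 0.15, adjusted p 0.032). The second of these calls was lost under 7 of 15 alternatives, among them total counts alone (adjusted p 0.187), upper-quartile scaling (0.093) and the omission of any 1 of the untreated WT libraries or of DTEC replicate 2 or 3 (0.0704 to 0.116). KO2 libraries held 295, 276 and 274 CPM of TOP1. They did not overlap with untreated WT, as was the case for 35.7% of all genes, and the gene was not called (-0.16, 95% interval -0.47 to 0.16, adjusted p 0.649). TOP1 was deposited as a whole number in 6 of 12 libraries, so some of its reads were shared out with other features. PLCG1-AS1, an antisense gene over the end of TOP1, averaged at most 0.434 CPM in any group. The processed copy TOP1P1 was listed at up to 0.0382 CPM.

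The RefSeq promoter table (GRCh38.p14, from 250 bases before to 50 bases after the annotated start) gave a sequence for 7 of the 8 genes, with no entry for TOP1MT. Those of TOP1 and TOP2A are printed because these genes fell most among the 7. They cover chr20:41028572-41028871 on the plus strand and chr17:40417847-40418146 on the minus strand, read 5′ to 3′ along the gene. Capitals mark matches, on either strand, to 10 motifs: the CCAAT box, TTTGAA for the cell-cycle homology region (CHR) with TTCGAA as its variant, GGGCGG for the GC box, TGACGTCA for the CRE, CACGTG for the E-box, TTTCGCGC with TTTGGCGC for E2F, the NRF1 palindrome and TATAAA for the TATA box.
TOP1: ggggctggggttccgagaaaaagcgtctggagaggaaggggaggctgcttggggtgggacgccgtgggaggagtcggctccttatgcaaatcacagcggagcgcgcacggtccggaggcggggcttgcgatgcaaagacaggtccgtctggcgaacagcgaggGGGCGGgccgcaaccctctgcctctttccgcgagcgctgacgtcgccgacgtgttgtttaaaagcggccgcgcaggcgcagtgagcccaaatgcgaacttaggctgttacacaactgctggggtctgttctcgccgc
TOP2A: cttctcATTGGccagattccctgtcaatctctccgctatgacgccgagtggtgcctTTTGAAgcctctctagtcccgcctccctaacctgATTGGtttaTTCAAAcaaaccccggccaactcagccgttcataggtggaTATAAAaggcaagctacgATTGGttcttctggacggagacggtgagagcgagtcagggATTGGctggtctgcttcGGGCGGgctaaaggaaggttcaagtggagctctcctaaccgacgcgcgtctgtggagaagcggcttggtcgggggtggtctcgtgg
The TOP1 window held 1 match, a GC box whose first base is at -87 from the start site. The TOP2A window held 8 matches in all, with 4 CCAAT boxes, each on the opposite strand, at -244, -160, -93 and -53. It also held 2 CHR matches at -194 and -151, a TATA match at -111 and a GC box at -36. The pairing of CCAAT boxes with a CHR is known from promoters of G2 genes, and was also found in 1 of 2 windows of TOP2B, described below. In all 35116 promoter windows, 34.6% held CCAAT, 15.2% TTTGAA, 45% GGGCGG and 11.5% TATAAA. A match is a description of the letters, and binding was not measured.

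TOP1MT, the form of TOP1 that works on mitochondrial DNA, is encoded by a separate nuclear gene on chromosome 8. Untreated WT libraries held 51.9, 58.7 and 51.1 CPM and DTC libraries 16.5, 15.3 and 16.4 CPM. The DTC values were close together and far below untreated WT, at 29.8% of its mean (log2 fold change -1.75, SE 0.11, adjusted p 6.77e-09). At 28 days the level was 42.5, 48.7 and 55.6 CPM, overlapping with untreated WT (-0.14, 95% interval -0.36 to 0.09, adjusted p 0.286). The rise from DTC was 3.05-fold (1.61, SE 0.11, adjusted p 3.99e-08). KO2 libraries held 46.8, 45.7 and 46.4 CPM, each below every untreated WT library, with no call (-0.22, 95% interval -0.45 to 0.01, adjusted p 0.315).

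Of the 13 genes listed with TOP1MT for the upkeep of mitochondrial DNA, 10 were called lower at day 7, 3 were not called and none was higher, with a median log2 fold change of -0.80 over the 13. The largest falls were in TWNK, the mitochondrial replicative helicase (48.3 ± 4.19 to 13.8 ± 2.41 CPM, SD, n = 3, log2 fold change -1.81, adjusted p 1.45e-08), and LIG3, the DNA ligase shared by mitochondria and single-strand break repair (49.6 ± 1.97 to 17.01 ± 2.64 CPM, -1.54, adjusted p 2.13e-08). At 28 days 10 of the 13 were still lower than in untreated WT, with a median of -0.55, led by POLRMT, the mitochondrial RNA polymerase (-1.01, adjusted p 0.00142), and TWNK (-0.70, adjusted p 0.000204). TOP1MT itself was not called in that comparison. From DTC to DTEC 6 of the list rose, including TWNK (1.10, adjusted p 4.07e-06) and LIG3 (0.99, adjusted p 3.87e-06), and 3 fell. In KO2 the list had 1 call, TFAM, which packages mitochondrial DNA (230 ± 12.4 to 171 ± 4.96 CPM, -0.43, adjusted p 0.0137). For comparison, 33.3% of all tested genes were called lower in DTC and 26.3% in DTEC. From DTC to DTEC 28.8% rose and 26.6% fell, and 4.31% were called in KO2.

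TOP2A untangles sister chromatids and is made mainly by dividing cells, late in the cell cycle. The gene lies on the minus strand of chromosome 17 from 40388516 to 40417950 (GRCh38, GENCODE 29). Untreated WT libraries held 695, 610 and 654 CPM and DTC libraries 174, 111 and 133 CPM. This was the largest fall among the 8 genes, to 21.3% of the untreated WT mean (log2 fold change -2.23, SE 0.14, adjusted p 7.6e-09), with no overlap between the groups. It was -2.38 without DTC replicate 1. At 28 days TOP2A stood at 469, 452 and 408 CPM, above all DTC libraries (1.67, SE 0.14, adjusted p 2.86e-07) and below all untreated WT libraries (-0.56, SE 0.14, adjusted p 0.00314). KO2 libraries, at 695, 650 and 675 CPM, overlapped with untreated WT (0.05, 95% interval -0.24 to 0.34, adjusted p 0.909).

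Genes of G2 and mitosis moved the same way as TOP2A. All 22 on the list were called lower in DTC (median log2 fold change -1.87) and all 22 in DTEC (median -0.95), and 20 rose and 1 fell from DTC to DTEC. Beside this, 33.3% of all tested genes were lower in DTC and 26.3% in DTEC, and 28.8% rose from DTC to DTEC. PLK1, a kinase that drives mitotic entry, went from 325 ± 25.5 CPM in untreated WT to 31.7 ± 3.84 in DTC and 115 ± 9.26 in DTEC (log2 fold changes -3.36 and -1.50 against untreated WT, adjusted p 4.49e-11 and 9.34e-08). CDC20, which activates the anaphase-promoting complex, went from 359 ± 13.9 to 49.1 ± 1.4 CPM in DTC (-2.87, adjusted p 3.5e-10) and rose by 1.42 from DTC to DTEC (adjusted p 4.37e-07). The S and G2 cyclin CCNA2 was 324 ± 6.40 CPM in untreated WT and 117 ± 0.278 in DTEC (-1.47, adjusted p 2.76e-08). The gene that fell from DTC to DTEC was CDK1 (-0.54, adjusted p 0.00274). In KO2 none of the 22 was called, where 4.31% of all tested genes were. In bulk libraries a smaller share of cells in G2 and less TOP2A RNA per cell cannot be told apart.

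TOP2B, the form of TOP2 found also in cells that do not divide, acts at promoters and at the anchors of chromatin loops. The gene lies on the minus strand of chromosome 3 from 25597905 to 25664907 (GRCh38, GENCODE 29). Untreated WT libraries held 222, 184 and 193 CPM and DTC libraries 173, 103 and 98.6 CPM. DTC replicate 1 lay close to the untreated WT range, and replicates 2 and 3 well below it. The fall was 1.60-fold (log2 fold change -0.68, SE 0.18, adjusted p 0.00385). It was -0.95 without DTC replicate 1 (adjusted p 7.64e-07), and it was not called with total counts alone (-0.33, adjusted p 0.116) or with upper-quartile scaling (-0.40, adjusted p 0.0525).

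At 28 days TOP2B was at 237, 224 and 196 CPM, overlapping with untreated WT (0.13, 95% interval -0.25 to 0.51, adjusted p 0.553) and above every DTC library (0.81, SE 0.18, adjusted p 0.00158). KO2 libraries held 212, 179 and 186 CPM, with replicate 2 below the untreated WT range and the other two inside it (-0.06, 95% interval -0.44 to 0.33, adjusted p 0.916). The last 28 bases of TOP2B overlap with the end of RARB, a retinoic acid receptor gene on the opposite strand. RARB averaged 0.351 CPM without drug, 9.22 CPM at day 7 and 2.68 CPM at day 28 in wild-type cells. In untreated KO2 it averaged 1.00 CPM and was called higher than in untreated WT (1.48, adjusted p 0.0247). The strand setting of the counting is not given in the sources used here, so reads in those bases could be counted for either gene.

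The cohesin and CTCF genes listed with TOP2B had a similar course. Of 9, 8 were called lower in DTC (median log2 fold change -1.16) and 8 were called higher in DTEC than in DTC (median 1.07). The leading genes were STAG1 (87.6 ± 3.92 to 21.1 ± 5.06 CPM in DTC, -2.05, adjusted p 1.33e-08) and SMC3 (120 ± 14.6 to 36.2 ± 12.3 CPM, -1.74, adjusted p 1.63e-06), both subunits of cohesin. Against untreated WT, 3 of the 9 were lower in DTEC, including STAG1 (-0.67, adjusted p 0.000716) and SMC1A (-0.52, adjusted p 0.0157). None of the 9 was called in KO2, where 4.31% of all tested genes were. Among all tested genes, 33.3% were lower in DTC, 28.8% higher in DTEC than in DTC and 26.3% lower in DTEC than in untreated WT.

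TOP3A works with the helicase BLM and the RMI proteins to separate joined DNA molecules, and a form of it works in mitochondria. The gene lies on the minus strand of chromosome 17 from 18271428 to 18315007. The 3 untreated WT libraries were nearly equal, at 84.3, 84.7 and 83.4 CPM, and DTC libraries held 60.3, 41.4 and 48.5 CPM. DTC was below untreated WT without overlap (log2 fold change -0.75, SE 0.12, adjusted p 4.87e-05), and the difference was -0.87 without DTC replicate 1. DTEC libraries, at 62.1, 63.3 and 61.5 CPM, stayed at 74.1% of untreated WT (-0.43, SE 0.11, adjusted p 0.00577, and not called with total counts alone, adjusted p 0.0662). The difference between DTEC and DTC was small (0.32, SE 0.12, adjusted p 0.0305) and its call was lost under 11 of 15 alternatives. TOP3A in KO2, at 77.5, 77.7 and 81.4 CPM, was just under untreated WT and not called (-0.09, 95% interval -0.34 to 0.15, adjusted p 0.746). Of its 12 deposited values 7 were whole numbers.

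TOP3B acts on RNA as well as DNA, in a complex with TDRD3. The gene lies on the minus strand of chromosome 22 from 21957025 to 21982816. Untreated WT libraries held 12.8, 16.9 and 15 CPM, DTC libraries 11.6, 11.2 and 11.6 CPM and DTEC libraries 9.41, 11.2 and 11.5 CPM. Both treated groups lay below untreated WT without overlap. The DTC difference (log2 fold change -0.37, SE 0.12, adjusted p 0.0163) vanished with total counts alone (-0.0166, adjusted p 0.914), was -0.0822 with upper-quartile scaling (adjusted p 0.571), and was also not called without untreated WT replicate 2 or 3 or DTC replicate 2 or 3. The DTEC difference (-0.47, SE 0.12, adjusted p 0.0055) was lost with total counts alone (-0.31, adjusted p 0.0562). AC245452.1, an antisense gene over TOP3B, averaged at most 0.156 CPM in any group. TOP3B was not called between DTEC and DTC (-0.10, 95% interval -0.37 to 0.17, adjusted p 0.509). KO2 libraries, at 13.7, 15.5 and 15.7 CPM, fell inside the untreated WT range (0.01, 95% interval -0.25 to 0.27, adjusted p 0.982).

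Of 8 partner genes of TOP3A and TOP3B, 5 were lower and 1 higher in DTC (median log2 fold change -0.66). TDRD3 went from 18.7 ± 1.76 to 5.94 ± 0.515 CPM (-1.65, adjusted p 3.46e-08) and BLM from 53.8 ± 6.10 to 21.6 ± 7.09 CPM (-1.32, adjusted p 8.36e-06). The gene that rose was RECQL5, a helicase (0.42, adjusted p 0.00242). In DTEC 4 were lower and 2 higher than in untreated WT, with RMI2, a subunit of the BLM and TOP3A complex, at 13.05 ± 1.84 against 7.06 ± 0.878 CPM (0.89, adjusted p 0.000229) and BLM lower (-0.73, adjusted p 0.00208). From DTC to DTEC 4 of the 8 rose, including TDRD3 (1.03, adjusted p 8.71e-06) and RMI2 (1.00, adjusted p 7.85e-05). None of the 8 was called in KO2, where 4.31% of all tested genes were. The shares over all tested genes were 33.3% lower and 34% higher in DTC, and 26.3% lower and 26% higher in DTEC. From DTC to DTEC 28.8% of all tested genes rose.

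**Figure D2:**
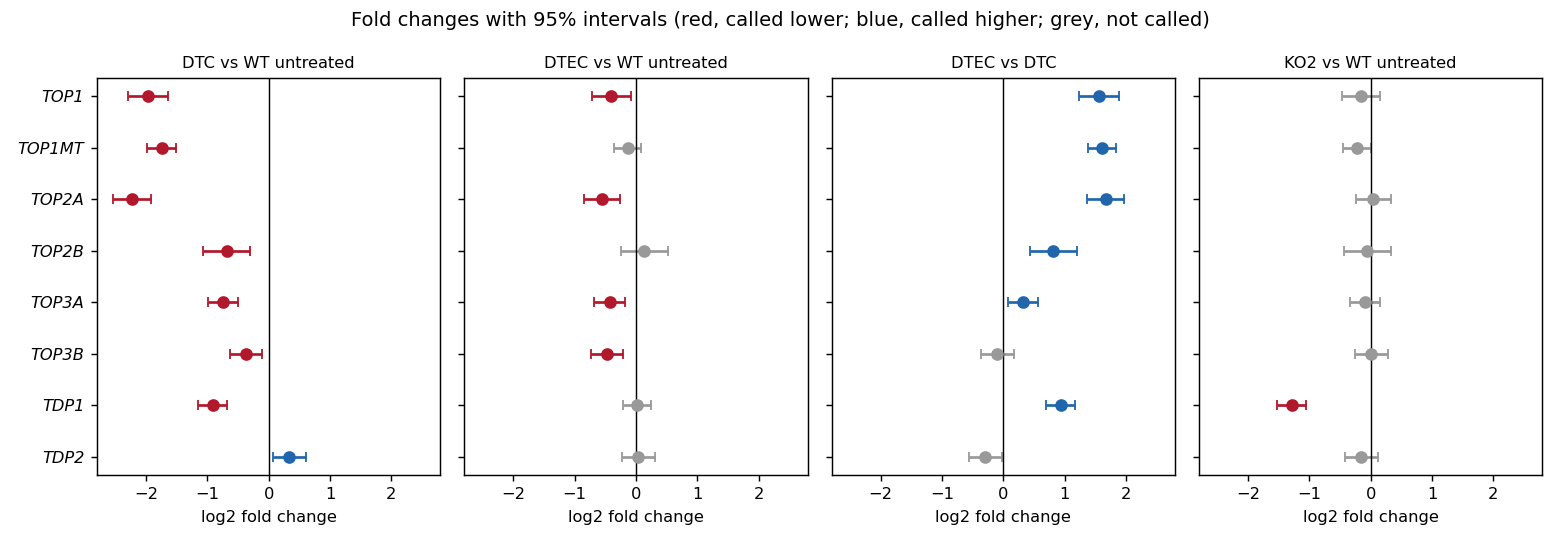
Log2 fold change (x axis) of each of the 8 genes (y axis) in the 4 comparisons, with 95% intervals from the fit of all 12 libraries. Red marks genes called lower, blue genes called higher and grey genes not called. Of the 8 genes, 7 are red in DTC, 4 in DTEC and 1, TDP1, in KO2.

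TDP1 is the gene altered in KO2, and it lies on the plus strand of chromosome 14 from 89954939 to 90044768 (GRCh38, GENCODE 29). KO2 libraries held 10.1, 11.3 and 10.98 CPM of TDP1 against 28.1, 25.1 and 25.8 CPM in untreated WT. The KO2 libraries were all below the untreated WT libraries, at 41% of their mean (log2 fold change -1.29, SE 0.11, adjusted p 1.3e-05). A larger absolute change in KO2 was found in 4.38% of all tested genes. The values are totals over the gene, and they do not show which exons the remaining reads cover. EFCAB11, the coding gene next to TDP1 on the opposite strand with 161 bases between them, was at 7.99 CPM in untreated WT and 9.86 CPM in KO2 (0.30, adjusted p 0.344). KCNK13, on the other side, was at most 0.587 CPM on average in any group.

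TDP1 also fell in wild-type cells under erlotinib. DTC libraries held 15.7, 12.7 and 13.5 CPM, or 53% of the untreated WT mean (-0.92 on the log2 scale, SE 0.11, adjusted p 3.56e-06). Each of these values lay above every KO2 value, a side-by-side reading without a test. DTEC libraries were back at 28.4, 25.4 and 26.1 CPM, with replicate 1 just above the untreated WT range and the other two inside it (0.02, 95% interval -0.21 to 0.24, adjusted p 0.905). The rise from DTC was 1.91-fold (0.93, SE 0.11, adjusted p 6.31e-06). The DTC fall of TDP1 ranged from -0.97 to -0.56 over 15 alternatives, and its adjusted p did not exceed 0.000287 in them.

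TDP2 followed another course. The gene lies on the minus strand of chromosome 6 from 24649977 to 24667033. Untreated WT libraries held 91.4, 77.3 and 89.5 CPM and DTC libraries 91.7, 123 and 111 CPM, so the groups were parted by DTC replicate 1 and untreated WT replicate 1 alone, which nearly met. The rise was 1.26-fold (log2 fold change 0.33, SE 0.12, adjusted p 0.0285). It was 0.48 without DTC replicate 1 (adjusted p 0.000771) and 0.69 with total counts alone, and it was not called without untreated WT replicate 2 (adjusted p 0.0826), without DTC replicate 2 (0.0524) or with the compared libraries fitted alone (0.0548).

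In DTEC TDP2 stood at 98.4, 91.8 and 74.9 CPM, on both sides of the untreated WT range (0.04, 95% interval -0.23 to 0.31, adjusted p 0.82). It was not called against DTC (-0.30, 95% interval -0.56 to -0.03, adjusted p 0.0576), though 7 of 15 alternatives called it lower in DTEC, among them the omission of DTC replicate 1 (-0.42, adjusted p 0.00257). KO2 libraries held 79.2, 76.3 and 77.0 CPM, 90.1% of the untreated WT mean, with no call (-0.15, 95% interval -0.42 to 0.12, adjusted p 0.601).

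The promoter windows of the phosphodiesterase genes are printed because both hold the same NRF1 motif while the genes moved in opposite directions in DTC. They cover chr14:89955677-89955976 on the plus strand and chr6:24666850-24667149 on the minus strand (GRCh38.p14), with motif matches in capitals as above.
TDP1: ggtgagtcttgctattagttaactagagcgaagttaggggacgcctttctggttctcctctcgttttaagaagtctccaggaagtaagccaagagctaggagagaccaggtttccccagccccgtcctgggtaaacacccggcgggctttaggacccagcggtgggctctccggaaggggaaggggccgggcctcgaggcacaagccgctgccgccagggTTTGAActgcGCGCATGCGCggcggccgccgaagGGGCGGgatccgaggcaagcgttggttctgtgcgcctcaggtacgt
TDP2: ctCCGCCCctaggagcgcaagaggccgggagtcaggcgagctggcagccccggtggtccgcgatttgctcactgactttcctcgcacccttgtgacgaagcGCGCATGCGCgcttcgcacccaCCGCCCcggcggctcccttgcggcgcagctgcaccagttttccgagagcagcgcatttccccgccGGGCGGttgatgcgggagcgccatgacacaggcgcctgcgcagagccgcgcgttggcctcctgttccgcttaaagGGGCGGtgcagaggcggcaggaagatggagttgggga
The NRF1 palindrome begins at -20 in TDP1 and at -149 in TDP2. It was found in 1.24% of all promoter windows and in none of the other members' windows. TDP1 also held a CHR match at -30 and a GC box at 5, and TDP2 held 4 GC boxes. CCAAT was found in TOP2A and TOP2B alone among the 7 genes, and GGGCGG in all 7. TOP2B has 2 windows in the table, and 1 of them held 2 CCAAT boxes together with 1 CHR match. The CRE, the E-box, the CHR variant and the E2F motifs matched in none of them.

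Genes that process TOP1 cleavage complexes alongside TDP1 were lower in 9 of 17 cases in DTC, higher in 1 and not called in 7 (median log2 fold change -0.43). LIG3, which seals the break, is given above. PARP1, which marks single-strand breaks and recruits TDP1, went from 297 ± 10.8 to 118 ± 29.2 CPM (-1.33, adjusted p 9.49e-07). The gene that rose was MUS81, a nuclease that cuts DNA near stalled forks and offers a route around TDP1 (22.2 ± 1.87 to 32.8 ± 5.35 CPM, 0.57, adjusted p 0.000661). In DTEC 7 were lower and 1, MUS81, higher than in untreated WT, with FEN1, a flap nuclease, at 85.7 ± 13.4 against 181 ± 11 CPM (-1.08, adjusted p 6.74e-06) and PARP1 at 165 ± 12.4 CPM (-0.85, adjusted p 0.00013). From DTC to DTEC 6 rose, led by LIG3 and the helicase WRN (0.81, adjusted p 0.000164), and 3 fell. In KO2 none of the 17 was called, where 4.31% of all tested genes were. Of all tested genes, 67.3% were called in DTC (33.3% lower), 52.3% in DTEC (26.3% lower) and 55.4% from DTC to DTEC (28.8% higher). Counting both directions, the list was thus called no more often than genes at large.

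Factors that attach or remove ubiquitin or SUMO, or that extract and degrade trapped topoisomerases, were lower in 12 of 16 cases in DTC and higher in 2 (median log2 fold change -0.79). Across all tested genes 33.3% were lower and 34% higher in DTC, with 26.3% lower and 26% higher in DTEC. USP7, a deubiquitinase, went from 273 ± 21.2 to 86.2 ± 23.4 CPM (-1.66, adjusted p 3.39e-07). The 2 that rose were the SUMO ligase PIAS1 (0.78, adjusted p 6.41e-05) and the ubiquitin ligase scaffold CUL4B (0.42, adjusted p 0.00672). In DTEC 8 were lower, led by VCP, the ATPase that extracts proteins from chromatin (618 ± 19.04 to 372 ± 23.6 CPM, -0.73, adjusted p 0.000116), and PIAS4 (-0.66, adjusted p 0.00273). PIAS1 and CUL4B were again the 2 called higher. From DTC to DTEC 7 rose, among them USP7 (1.01, adjusted p 7.27e-05) and BTBD2 (0.73, adjusted p 0.00638), and 1 fell. Over all tested genes 28.8% rose and 26.6% fell in that comparison. None was called in KO2, where 4.31% of all tested genes were.

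Genes that clear trapped TOP2 and join the break, the setting in which TDP2 works, were lower in 9 of 15 cases in DTC and higher in 1 (median log2 fold change -0.44). PRKDC, the kinase of end joining, went from 544 ± 3.70 to 174 ± 72.4 CPM (-1.64, adjusted p 1.33e-05), and XRCC4, which holds the joining ligase, from 14.2 ± 1.15 to 5.07 ± 0.614 CPM (-1.49, adjusted p 1.87e-07). The gene that rose was LIG4, the ligase itself (0.40, adjusted p 0.00476). In DTEC 6 were lower, with PAXX, an end-joining scaffold, at 10.3 ± 2.11 against 24.7 ± 3.95 CPM (-1.26, adjusted p 0.00107). The 2 that were higher in DTEC were ATM, the break-signalling kinase (81.3 ± 12.6 against 41.4 ± 1.72 CPM, 0.97, adjusted p 0.000136), and the nuclease MRE11 (0.54, adjusted p 0.000344). From DTC to DTEC 8 rose, including PRKDC (1.21, adjusted p 0.000299) and ATM (0.91, adjusted p 0.000217), and 2 fell. In KO2 LIG4 was lower (20.7 ± 2.09 to 14.6 ± 0.667 CPM, -0.50, adjusted p 0.0182) and the other 14 were not called. Calls in either direction covered 67.3% of all tested genes in DTC, 52.3% in DTEC, 55.4% from DTC to DTEC and 4.31% in KO2. The list was close to these shares in DTC and DTEC, while 33.3% of all tested genes were lower in DTC.

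**Figure D3:**
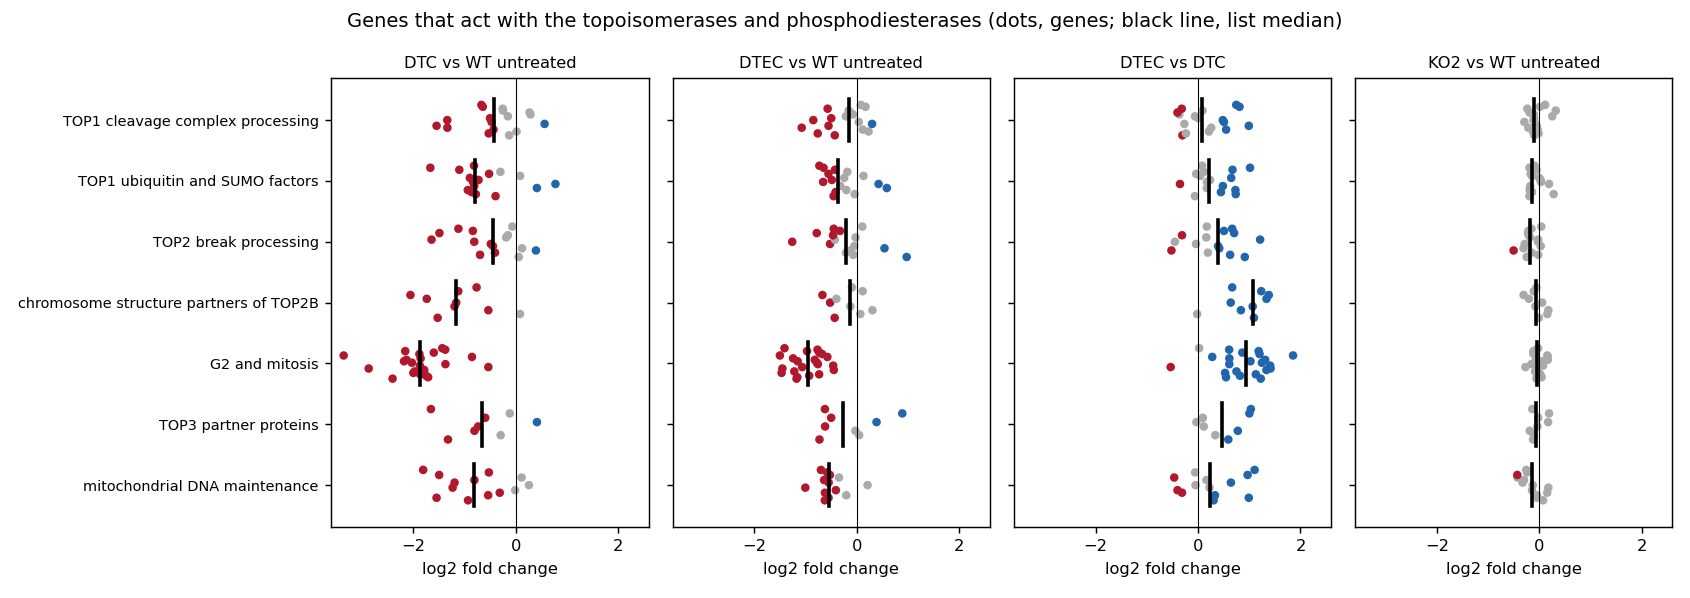
Log2 fold change (x axis) of each gene (dots) in 7 lists of partner genes (y axis) in the 4 comparisons; red dots are called lower, blue higher and grey not called, and black lines are list medians. The G2 and mitosis list lies furthest to the left in DTC, with a median of -1.87, and the lists in KO2 lie near 0.

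The balance between members was examined within each library, where the scaling between libraries has no part. A comparison of 3 libraries with 3 cannot give a two-sided exact permutation p below 0.1, so none of the 20 ratio tests could pass 0.05, and the smallest p adjusted over the 20 was 0.167. Per TOP1 count, untreated WT held 0.0838 ± 0.00255 TDP1 counts (SD, n = 3), DTC 0.179 ± 0.026, DTEC 0.113 ± 0.0102 and KO2 0.0384 ± 0.00372. Each group lay apart from the untreated WT libraries. The ratio was 2.12-fold higher in DTC (log2 difference 1.08, exact permutation p 0.1), 1.35-fold higher in DTEC (0.43, exact permutation p 0.1) and 2.19-fold lower in KO2 (-1.13, exact permutation p 0.1). From DTC to DTEC it moved by -0.65. TDP1 itself was lower in DTC (log2 fold change -0.92), and TOP1 fell further (-1.97). In DTEC TDP1 was not called (0.02) and TOP1 was lower (-0.41).

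TDP2 per unit of TOP2A and TOP2B together, each per kilobase of exon, was 0.89 ± 0.321 in DTC, against 0.208 ± 0.00887 in untreated WT and 0.272 ± 0.0163 in DTEC. The DTC value was 4.08-fold above untreated WT (log2 difference 2.03, exact permutation p 0.1), with DTC replicate 1 the lowest of its group at 0.535 and the highest at 1.16. Without DTC replicate 1 the log2 difference was 2.36. In KO2 the ratio was 0.184 ± 0.00492, 1.13-fold below untreated WT without overlap (-0.17, exact permutation p 0.1). Untreated WT held 3.27 ± 0.13 TOP2A counts per TOP2B count, DTC 1.14 ± 0.179, DTEC 2.02 ± 0.0505 and KO2 3.51 ± 0.202. DTC and DTEC lay below untreated WT without overlap (-1.53 and -0.69, exact permutation p 0.1 for each), and KO2 overlapped with it (0.10, exact permutation p 0.3).

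For the mitochondrial and nuclear type IB genes, TOP1MT per TOP1 overlapped between the groups of all 4 comparisons (log2 differences -0.06 to 0.27, exact permutation p 0.3 to 1). The overlap of DTC with untreated WT (0.159 to 0.190) rested on DTC replicate 1, at 0.157. DTC replicates 2 and 3, at 0.228 and 0.241, lay above every untreated WT library. Without DTC replicate 1 the log2 difference was 0.45, against 0.26 with it. In DTEC only replicate 1, at 0.163, lay inside the untreated WT range. TOP3A per TOP3B overlapped in 3 of 4 comparisons and was higher in DTEC than in DTC without overlap (0.44, exact permutation p 0.1). Its overlap between DTC and untreated WT (5.02 to 6.59) also rested on DTC replicate 1, at 5.19. DTC replicates 2 and 3, at 3.68 and 4.16, lay below that range. The log2 difference was -0.40, and -0.54 without DTC replicate 1. These tests cannot show that the ratios were equal.

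**Figure D4:**
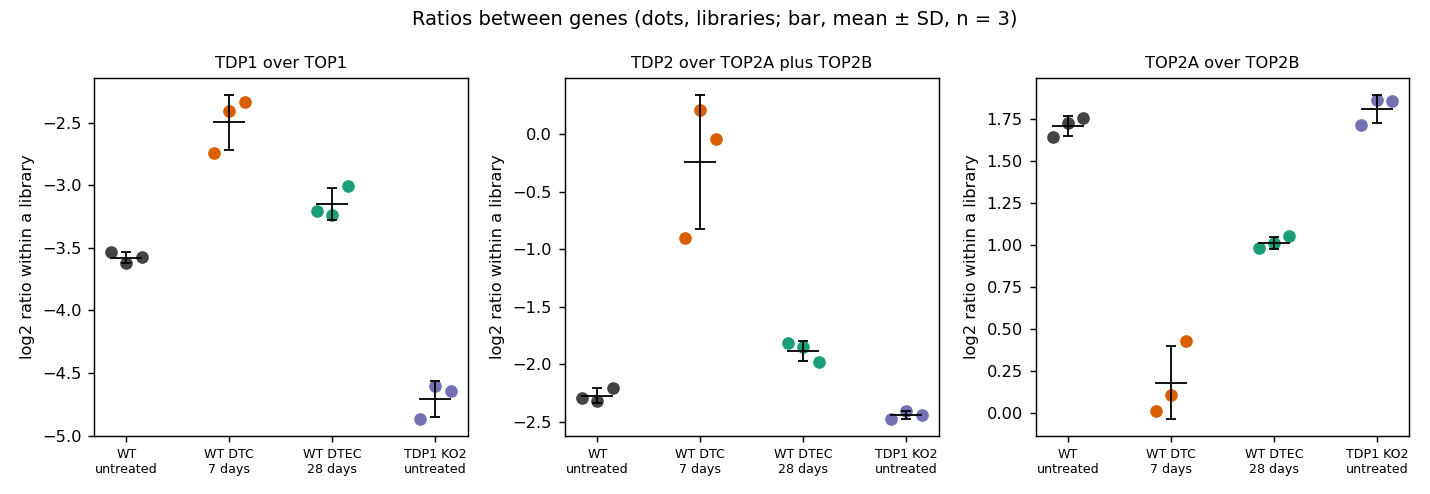
Log2 ratio between genes within a library (y axis) by group (x axis) for TDP1 over TOP1, TDP2 over TOP2A plus TOP2B, and TOP2A over TOP2B. Dots are libraries and bars are mean ± SD of 3. Both phosphodiesterase ratios are highest in DTC, though TDP1 itself fell there, and KO2 lies lowest for TDP1 over TOP1.

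Levels of different genes were compared per kilobase of joined exon. In untreated WT the order was TOP2A (101 ± 6.66 CPM per kb), TOP1 (84.01 ± 2.90), TOP2B (33.1 ± 3.31), TDP2 (27.9 ± 2.49), TOP3A (12.99 ± 0.101), TOP1MT (8.37 ± 0.647), TDP1 (4.23 ± 0.257) and TOP3B (2.24 ± 0.308), and no neighbours in that order overlapped. In DTC, TDP2 stood first at 35.2 ± 5.07 CPM per kb, followed by TOP2A (21.6 ± 4.97), TOP1 (21.4 ± 5.78) and TOP2B (20.6 ± 6.87), whose libraries overlapped with each other. TOP1MT (2.49 ± 0.104) and TDP1 (2.24 ± 0.25) also overlapped there. In DTEC the untreated WT order returned, with TOP2A (68.8 ± 4.90) and TOP1 (63.3 ± 6.99) overlapping. In KO2, TDP1 was last (1.73 ± 0.104), below TOP3B (2.26 ± 0.164). The middle of the order depends on the length used. With the median coding transcript or the longest coding sequence, TDP2 moved above TOP2B in untreated WT, DTEC and KO2, and TOP1 moved above TOP2A in DTC and DTEC with the longest coding sequence. TOP1MT moved above TOP3A in untreated WT and DTEC with both lengths, and in KO2 with the median coding transcript. TOP2B moved above TOP1 in DTC with the median coding transcript. TDP2 was first in DTC with each length, and TDP1 was no longer last in KO2 with the longest coding sequence.

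The summed level of the 6 topoisomerases per kilobase went from 242 ± 11.7 CPM per kb in untreated WT to 75.7 ± 18.9 in DTC, with 187 ± 14.2 in DTEC and 233 ± 8.88 in KO2. TOP2A made up 41.9% ± 1.01 of that sum in untreated WT and 28.7% ± 1.84 in DTC, and TOP1 34.7% ± 0.746 and 28.3% ± 0.884. The share of TOP2B rose from 13.6% ± 0.697 to 27% ± 2.51, and that of TOP3A from 5.37% ± 0.261 to 10.3% ± 0.806. In DTEC the share of TOP2A was 36.7% ± 0.217 and that of TOP2B 19.4% ± 0.386, between the values of untreated WT and DTC. These shares are a description and were not tested.

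**Figure D5:**
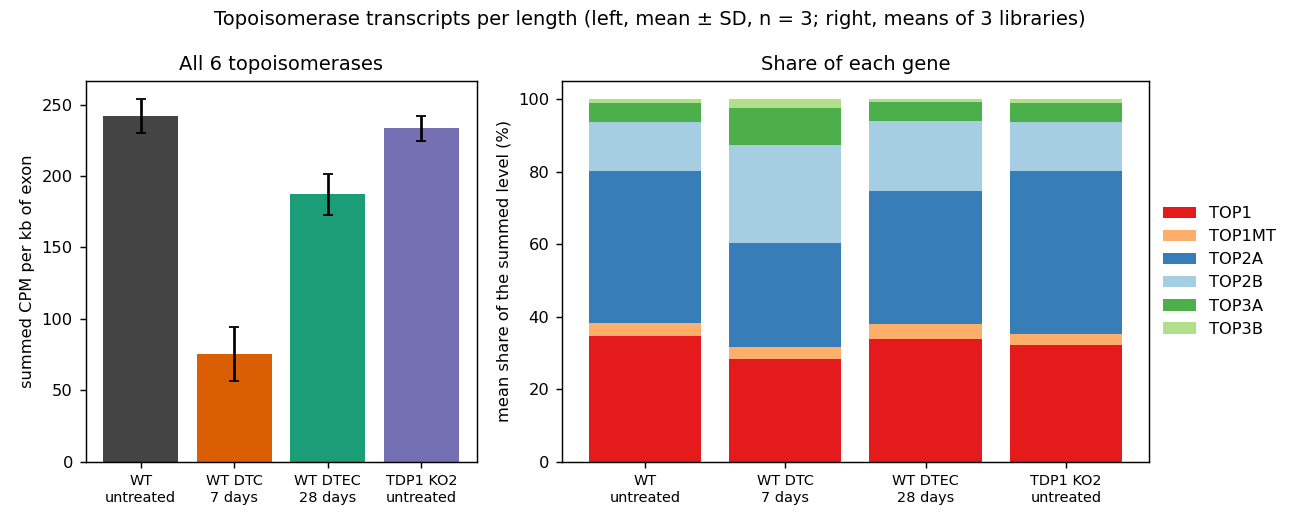
Left, summed CPM per kilobase of exon of the 6 topoisomerase genes by group (mean ± SD of 3 libraries, axis from 0). Right, mean share of each gene in that sum in percent. The sum is lowest in DTC, at 75.7, and the share of TOP2B is highest there, at 27%.

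Among 9801 tested genes with a mean of at least 10 CPM, those most like each member over the 12 libraries were found by Pearson's r of log2 CPM. The 12 points fall into 4 groups, so r mostly reflects the group means, and no p is given. TOP1 was most like TBC1D4 (r 0.999), IARS2 (0.998) and HEATR1 (0.997), and 765 genes had an r above 0.95 with it. TOP2A was most like EPB41L4B (0.998), PER3 (0.996) and RBM12 (0.996), with 797 genes above 0.95. Many genes thus had a course close to theirs. TOP1MT was most like SLC45A3 (0.996), HMGA1 (0.994) and SLC37A2 (0.992), with 332 genes above 0.95. TOP2B was most like SMARCC1 (0.987), DDI2 (0.984) and AEBP2 (0.983), with 143 above 0.95. TOP3A was most like SMURF1 (0.994), GPAM (0.99) and RBL1 (0.989), with 503 above 0.95.

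TOP3B, TDP1 and TDP2 had few such genes. TOP3B was most like FGFRL1 (r 0.963), AARS2 (0.959) and RNH1 (0.959), with 6 genes above 0.95. TDP1, low in both DTC and KO2, was most like AXL (r 0.966), FECH (0.959) and MAGEC1 (0.93), and 2 genes had an r above 0.95. AXL, a receptor kinase, averaged 53.1 CPM in untreated WT and 56.4 CPM in DTEC, against 21.98 CPM in DTC and 21.4 CPM in KO2. TDP2 was most like CPNE8 (0.952), PLSCR1 (0.948) and NCK1 (0.947), with 1 gene above 0.95. PLSCR1 averaged 36.8 CPM in DTC, against 26.8 CPM in untreated WT, 28.8 CPM in DTEC and 25.7 CPM in KO2.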

How the data were processed

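RNA of 12 PC9 cultures was sequenced as 101 bp pairs after TruSeq Stranded mRNA preparation, per the labels' protocols, and all libraries carry the same batch label and thus form a single batch. The deposited values are expected counts, estimated reads per gene not scaled to depth. RSEM 1.3.1, Bowtie2 2.5.2, DESeq2 1.40.2 and GRCh38 are named in the submitters' processing notes without roles; annotation and strand setting are not given in the sources used here. Values were rounded and fitted in R 4.3.3 with edgeR 4.0.16 (filterByExpr by group, TMM, all 12 libraries, 1 mean per group, robust quasi-likelihood F tests, Benjamini-Hochberg over 17115 genes, calls at adjusted p under 0.05). DESeq2 1.42.0 was an alternative, as were other scalings, filters, fits of the compared libraries alone, a replicate block and the omission of each library. In simulated data for the DTC comparison (16635 genes) 95% of genes changed by 1 on the log2 scale and 35% of those changed by 0.5 were recovered. That simulation changed 100 genes at each size, while 67.3% of genes were called in the data. The p adjustment depends on the share of changed genes, so these rates do not give the power of the real comparison.

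The 8 genes, the 7 partner lists (100 entries, 99 genes, from general knowledge) and the tests were chosen with earlier results of these data known. Named were all 8 genes, the 2 called genes of largest absolute change per list and comparison (mean of at least 1 CPM), the 3 genes most like each member, and neighbours of TDP1 or genes overlapping a member. Overlapping genes at 0 in every library fall under this rule too and are not named. MUS81, RECQL5, LIG4 (in DTC), PIAS1, CUL4B, MRE11 and CDK1 were named after their values were seen. A gene that the rule named is not reported here. Gene positions and lengths come from GENCODE 29, promoters from RefSeq (GRCh38.p14). Totals of 25572691 to 38373679 counts put 3 counts at 0.0824 to 0.115 CPM. P-values measure the spread between cultures split from 1 flask. The replicate numbers were not taken to pair libraries, since the labels do not say that a number joins cultures of different groups. Same-numbered libraries deviated together in some pairs and not in others, which does not settle the matter.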

Additional observations from a re-analysis of the deposited data

How the results depend on the processing

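Of 480 refits of the 32 fold changes of the 8 genes (15 alternatives each), 432 kept their direction and side of the threshold, 31 lost a call, 7 gained one and 10 changed sign, and 19 of the 32 fold changes kept both in all 15. Of the 31 lost calls, 16 came from the omission of single libraries and 11 from other scalings. With total counts alone the all-gene median shifted by 0.35 in DTC, 0.17 in DTEC and -0.19 between them, and with upper-quartile scaling by 0.29, 0.11 and -0.17. Among calls, the higher share then went from 50.5% to 68.4% in DTC, 49.7% to 63.7% in DTEC, 51.9% to 37.4% between them and 64.1% to 78.8% in KO2. Upper-quartile scaling gave 65%, 59.1%, 38.7% and 69.3%. The number of the 8 genes called in DTEC against untreated WT was 1 in place of 4 with total counts alone. In DTC it was 6 in place of 8 with total counts alone and with upper-quartile scaling. Sign changes were confined to fold changes not called in the main analysis. With total counts alone these were TOP1MT in DTEC (0.0298) and TOP2B in KO2 (0.0151). Omission of single libraries gave -0.00997 to 0.0853 for TDP1 and -0.0281 to 0.137 for TDP2 in DTEC against untreated WT, and -0.109 to 0.0442 for TOP2B and -0.0720 to 0.131 for TOP3B in KO2.

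The log2 ratios kept their direction in 175 of 180 refits. Omission of single libraries gave -0.181 to 0.183 for TOP1MT over TOP1 between DTEC and DTC, -0.114 to 0.0141 for the same ratio in KO2, and -0.0523 to 0.144 for TOP3A over TOP3B in DTEC. The count of all genes called in KO2 was 738, 1147 without the low-count filter, 2656 with the compared libraries fitted alone and 321 to 426 with any 1 of the 6 libraries left out, and the cause was not tested. TDP1 was the called member in KO2 in each of these. The replicate block, a fit with the replicate number as a term, called 8, 4, 6 and 1 of the 8 genes in DTC, DTEC, DTEC against DTC and KO2, and changed no call of a member. Every same-numbered pair correlated best with its own number in KO2 against untreated WT (r 0.0378 to 0.0629), a hint from the data and not the design. A sign-flip test over 3 pairs cannot give a p below 0.25. With total counts alone the median of the TOP1 cleavage complex list became 0.00681 in DTEC against untreated WT and -0.101 in DTEC against DTC (-0.0863 with upper-quartile scaling). The median of the TOP2B partner list became 0.0418 in DTEC against untreated WT and 0.0130 in KO2, and that of the G2 and mitosis list 0.0247 in KO2. TDP1 and TOP3B had the lowest counts of the 8 genes, at 287 to 950 and 293 to 568 per library. Still, the SE of TDP1 in DTC against untreated WT (0.11) was below that of TOP1 (0.15) and TOP2B (0.18).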
